A study of Mus musculus with 10 samples.

Results

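Hox genes encode homeodomain transcription factors that lie in 4 chromosomal clusters, Hoxa to Hoxd, and give cells along the head-to-tail axis their regional identity. Low gene numbers mark the anterior end of the axis and high numbers the posterior end. In cells that do not use them, Hox genes are kept silent by Polycomb complexes, and Bmi1 is a subunit of Polycomb repressive complex 1, which modifies histone H2A. The cerebellum arises from the most anterior hindbrain, a territory that lies ahead of the Hox expression domains, so its granule cell precursors normally hold these genes silent.

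The Hox cluster genes were taken as every gene whose array symbol is Hox, a letter from a to d and a number, with no filter on signal. Of 39 such genes in the RefSeq annotation, 33 had a probe set assigned to 1 gene symbol. They account for 48 of the 34945 probe sets, and for 33 of the 18193 genes, that carry a single symbol on the array. A single probe set measured 22 of the genes and several probe sets measured the other 11. The remaining 6 genes had no probe set of their own, and 3 probe sets that carry 2 Hox symbols each (Hoxd3 with Hoxd4, and Hoxb7 with Hoxb8) were not used.

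The study measured total RNA of primary cultures of cerebellar granule cell precursors, the dividing cells of the postnatal cerebellum that become granule neurons, on the Affymetrix Mouse430_2 array. The cultures came from Bmi1-/- or wild type mice, labelled as postnatal day 5 to 7. Sonic hedgehog (Shh), the mitogen of these precursors, was either added or left out. The design text calls the replicates biological. The groups were Bmi1-/- cultures without Shh (3 arrays, replicates 2, 4 and 6), wild type cultures without Shh (3 arrays, replicates 1, 3 and 5), Bmi1-/- cultures with Shh for 24 h (2 arrays, replicates 8 and 10) and wild type cultures with Shh for 24 h (2 arrays, replicates 7 and 9). All cultures were grown for 24 h in medium with serum and 20 mM KCl, and the labels give the Shh concentration as 3 mg/ml. For wild type replicate 3 the labels disagree: its protocol field speaks of added Shh where applicable, while its title and characteristics name none, and it was kept as untreated. Leaving it out kept all 8 Hox calls of the untreated genotype comparison. The allele, the strain and the number of animals behind a culture are not given in the sources used here. The cells were strained but not sorted, and in such a mixed culture a change in the number of cells of a type and a change in RNA per cell cannot be told apart.

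Signals are linear MAS5 values without detection calls. The 25th percentile of all values, a signal of 20.9, was used as a floor, and a signal at or under it was treated as not measured above background. Differences are given as log2 differences of signal plus 20.9, which understates the change of dim probe sets, with limma's standard error (SE) and a p adjusted over all 34945 probe sets. A probe set was said to rise or fall at an adjusted p under 0.05. A fold is the ratio of geometric mean signals after values under the floor were set to it, and "at least" marks a fold against a group with arrays under the floor. Probe sets differ in brightness for the same amount of RNA, so no gene's level is set against another's. Marker sums are led by their brightest members.

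The array medians lay between 66.8 and 91.2, lower on the 4 Shh arrays (66.8 to 72.3) than on the 6 untreated arrays (84.8 to 91.2). The mean signal of the 18S ribosomal RNA controls was 3658 on Bmi1-/- replicate 6 and 1226 on wild type replicate 1, against 204 to 507 on the other arrays, so results are also given without these arrays where that changes them. The 14 granule cell markers, which include Atoh1, Zic1, Pax6 and Neurod1, summed to 61644 to 65480 on the Bmi1-/- arrays. On the wild type arrays they summed to 57650 to 70772. None of the 14 passed the test in a genotype comparison. In the average comparison 5 had an unadjusted p under 0.05, as did 3325 of all 34945 probe sets. With consecutive cultures used as a block, a pairing read from these data alone, 2 of the 14 passed. These were Gli1 without Shh (log2 difference 0.51 without the block, blocked adjusted p = 0.0300) and Reln with Shh and in the average (0.46 and 0.30, blocked adjusted p = 0.0384 and 0.0176). Gabra6 and Barhl2 had the largest average log2 differences of the 14 (-0.57 and -0.40). Gabra6 gave 73.6, 108 and 140 in untreated Bmi1-/- cultures, against 245, 251 and 304 in untreated wild type cultures. Those groups did not overlap (log2 difference -1.19, adjusted p = 0.0848), and with Shh its difference was 0.05. Bmi1 itself gave 3416 to 3904 on Bmi1-/- arrays and 3673 to 4515 on wild type arrays with 1 probe set, and 1587 to 2219 against 1731 to 2555 with the other, and neither passed the test. These probe sets may lie outside the deleted part, in which case they check nothing. Cdkn2a, a known Polycomb target, gave 271 to 451 on Bmi1-/- arrays and 24.0 to 41.6 on wild type arrays, so the groups did not overlap.

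Without Bmi1, Hoxa2, Hoxa3, Hoxa4, Hoxa5, Hoxa7, Hoxa9, Hoxc9 and Hoxd8 rose in untreated cultures, each by 1 probe set, and no Hox gene fell. These are 8 of 48 Hox probe sets, where 0.272% of all probe sets passed the test, 0.212% as higher and 0.0601% as lower in Bmi1-/- cultures. At an unadjusted p under 0.05, 14 Hox probe sets were higher and 2 were lower. Over all 34945 probe sets, 2460 were under it in either direction. With Shh, Hoxa2, Hoxa3, Hoxa5, Hoxa7, Hoxa9 and Hoxc9 rose in Bmi1-/- cultures, 6 of 48 against 0.275% of all probe sets, 0.232% as higher and 0.0429% as lower. None fell, and at an unadjusted p under 0.05, 10 Hox probe sets were higher and 1 was lower. Over all probe sets, 2577 were under it with Shh in either direction. In the average over both conditions Hoxc4 and Hoxd8 passed together with those 6 genes. These were 8 of 48 against 0.741% of all probe sets, 0.547% as higher and 0.195% as lower. In the average 14 Hox probe sets were higher and 1 was lower at an unadjusted p under 0.05. Over all probe sets, 3325 were under it in the average in either direction. The untreated and the Shh comparison share no array, but they come from 1 fit and share its estimate of spread, so they are not independent tests. Counted over any of these comparisons, 9 Hox genes rose. The heat map of all Hox probe sets shows where these genes stand among the rest.

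**Figure D1:**
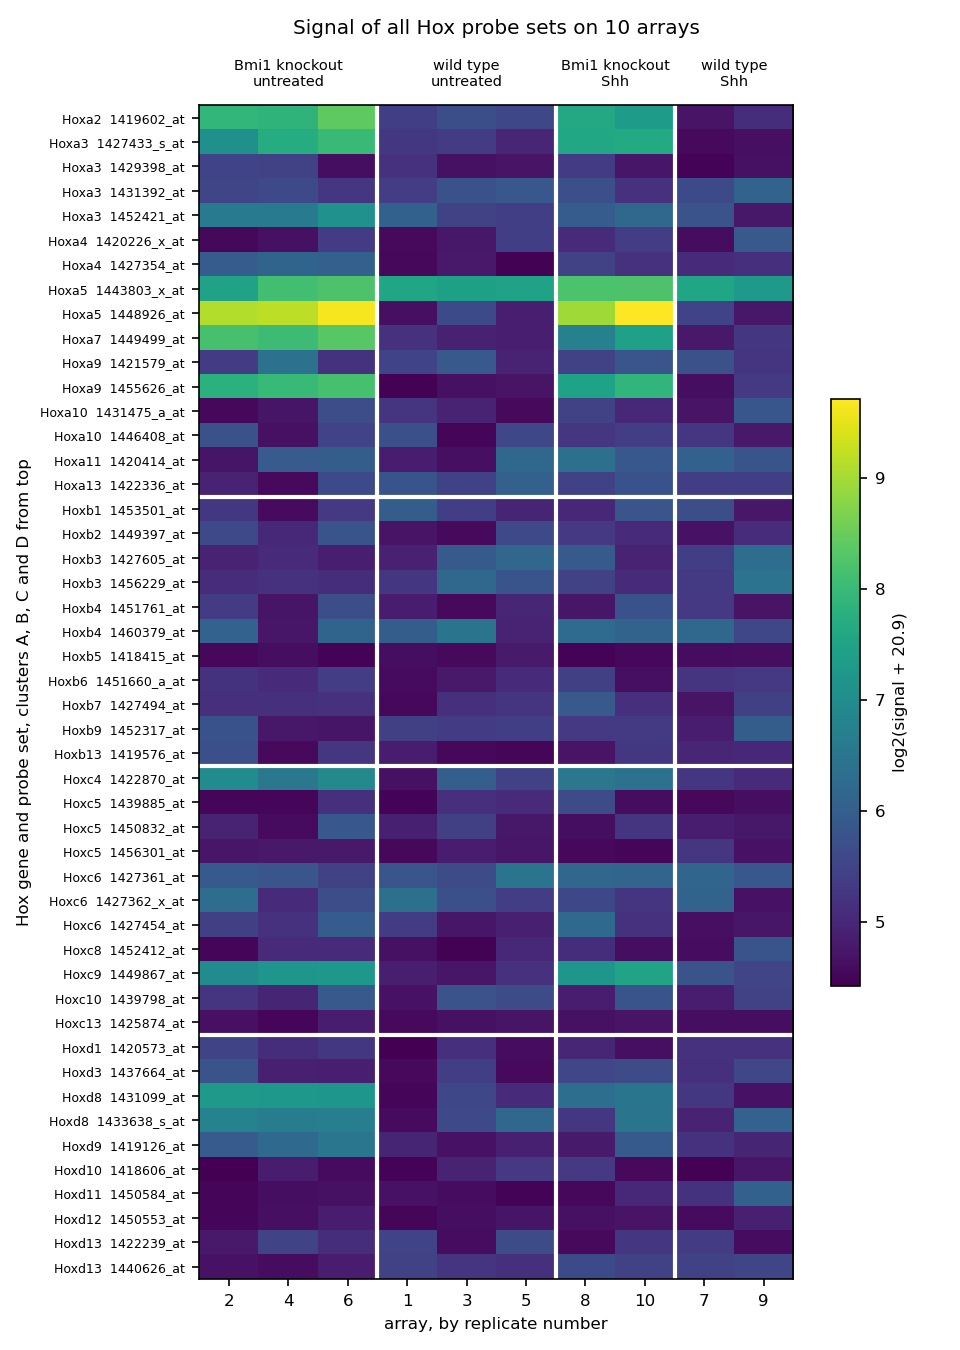
Signal of each of the 48 Hox probe sets (rows, by cluster A, B, C and D from the top) on each of the 10 arrays (columns, by group and replicate number), as log2 of signal plus 20.9; brighter means higher. Bright cells lie in the Bmi1-/- columns for Hoxa2, Hoxa3, Hoxa5, Hoxa7, Hoxa9, Hoxc9 and Hoxd8, and the x-type probe set of Hoxa5 is bright in all columns.

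Hoxa5, which patterns the neck vertebrae and the respiratory tract in mice, rose in both conditions. Its probe set 1448926_at gave 529, 563 and 775 in untreated Bmi1-/- cultures (mean 623 ± 133, SD, n = 3), against 4.25, 28.2 and 8.48 in untreated wild type cultures (13.6 ± 12.8, n = 3). Under Shh its signals were 477 and 817 in Bmi1-/- cultures, against 23.9 and 6.20 in wild type cultures. Every Bmi1-/- array lay far above every wild type array, and 3 of 5 wild type arrays were under the floor. This amounted to a fold of at least 26.5 without Shh (log2 difference 4.26, SE 0.31, adjusted p = 3.21e-05) and at least 27.9 with Shh (log2 difference 4.21, SE 0.38, adjusted p = 0.000284). The second Hoxa5 probe set, 1443803_x_at, whose suffix marks probes that also match other sequences, lay above the floor on all 10 arrays, with 157 to 282 on Bmi1-/- arrays and 132 to 167 on wild type arrays. Its average log2 difference was 0.64 (SE 0.16, adjusted p = 0.123). These probe sets of Hoxa5 therefore gave different calls.

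The genes of the anterior end of the cluster were measured by Hoxa2, Hoxa3 and Hoxa4. Hoxa2, which sets the identity of the second branchial arch and of rostral hindbrain segments, gave 222, 214 and 318 in untreated Bmi1-/- cultures, against 21.6, 31.0 and 26.5 in untreated wild type cultures. In Shh cultures it gave 175 and 141 in Bmi1-/- cultures, against 5.26 and 13.8 in wild type cultures. Untreated wild type arrays lay just above the floor and wild type Shh arrays under it, while all Bmi1-/- arrays lay well above both. The fold was 9.47 without Shh (log2 difference 2.51, SE 0.25, adjusted p = 0.000393) and at least 7.52 with Shh (2.56, SE 0.31, adjusted p = 0.00184), and with a fit of the compared groups alone the Shh call was lost (adjusted p = 0.0604).

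Hoxa3, needed in mice for the thymus and parathyroid glands, gave 114, 186 and 234 in untreated Bmi1-/- cultures with probe set 1427433_s_at, against 18.2, 19.8 and 11.2 in untreated wild type cultures. On Shh arrays it read 174 and 181 in Bmi1-/- cultures, against 2.56 and 4.23 in wild type cultures. It was above the floor on all 5 Bmi1-/- arrays and on no wild type array. The fold was at least 8.14 without Shh (2.37, SE 0.28, adjusted p = 0.00129) and at least 8.46 with Shh (3.03, SE 0.34, adjusted p = 0.00110). Another Hoxa3 probe set, 1452421_at, gave 76.0, 75.6 and 117 in untreated Bmi1-/- cultures, against 46.2, 23.8 and 21.8 in untreated wild type cultures. With Shh the signals were 41.6 and 52.6 in Bmi1-/- cultures, against 33.9 and 6.43 in wild type cultures. Its groups did not overlap in either condition, and its average log2 difference was 0.96 (adjusted p = 0.145). The 2 remaining Hoxa3 probe sets had average log2 differences of 0.40 and -0.31, and neither passed the test.

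Hoxa4, a gene that patterns neck vertebrae, gave 41.8, 49.1 and 45.6 in untreated Bmi1-/- cultures with probe set 1427354_at, against 2.41, 6.89 and 1.06 in untreated wild type cultures. With Shh it gave 23.0 and 15.4 in Bmi1-/- cultures, against 12.6 and 14.8 in wild type cultures. The untreated groups were far apart, while the Shh groups lay side by side at the floor. The untreated fold was at least 2.17 (log2 difference 1.45, SE 0.23, adjusted p = 0.0170) and the log2 difference with Shh was 0.21 (adjusted p = 0.976). Leaving out replicate 1, 2, 4, 5 or 6 ended the untreated call (highest adjusted p 0.121), as did a fit of the compared groups alone (adjusted p = 0.0556) and leaving out both high-18S arrays (adjusted p = 0.184). Its other probe set, 1420226_x_at, had an average log2 difference of -0.04. For 1427354_at the difference between both genotype effects was -1.25 on the log2 scale with an unadjusted p of 0.00464, and it did not pass the test after adjustment.

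Hoxa7, a gene of the trunk, gave 268, 244 and 303 in untreated Bmi1-/- cultures, against 15.6, 9.34 and 8.49 in untreated wild type cultures. Under Shh its signals were 84.6 and 155 in Bmi1-/- cultures, against 6.85 and 17.7 in wild type cultures. Every wild type array was under the floor and every Bmi1-/- array was well above it. This amounted to a fold of at least 12.9 without Shh (log2 difference 3.19, SE 0.27, adjusted p = 0.000111) and at least 5.48 with Shh (2.06, SE 0.33, adjusted p = 0.0196). The Shh call ended when replicate 7, 9 or 10 was left out (highest adjusted p 0.220) and with a fit of the compared groups alone (adjusted p = 0.214).

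Hoxa9, a posterior gene also known for its role in blood stem cells and leukaemia, gave 202, 238 and 268 in untreated Bmi1-/- cultures with probe set 1455626_at, against 1.2, 4.59 and 5.37 in untreated wild type cultures. In Shh cultures it gave 159 and 218 in Bmi1-/- cultures, against 3.89 and 19.1 in wild type cultures. It too was above the floor on all Bmi1-/- arrays and on no wild type array. The fold was at least 11.2 without Shh (3.38, SE 0.27, adjusted p = 6.48e-05) and at least 8.88 with Shh (2.72, SE 0.33, adjusted p = 0.00196). With a fit of the compared groups alone the Shh call was lost (adjusted p = 0.0670). The other Hoxa9 probe set, 1421579_at, had an average log2 difference of 0.18. These probe sets of Hoxa3, Hoxa7 and Hoxa9 were 3 of only 9 with a single symbol that lay above the floor on all Bmi1-/- arrays and on no wild type array (0.0258% of all probe sets). Counted by any of its probe sets, Hoxa3 was above the floor on 5 wild type arrays, Hoxa9 on 3 and Hoxa7 on 0.

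Beyond Hoxa9 the posterior end of the cluster did not pass the test. Hoxa10 had average log2 differences of 0.02 and 0.16 with its probe sets. Hoxa11, which patterns the forearm and the uterus, gave 5.53, 40.6 and 42.3 in untreated Bmi1-/- cultures and 62.4 and 37.3 in Bmi1-/- cultures with Shh. In wild type cultures it gave 7.85, 4.18 and 52.1 without Shh, and 45.9 and 34.8 with Shh. Hoxa13, which patterns digits, gave 10.2, 2.80 and 28.2 in untreated Bmi1-/- cultures, against 35.1, 22.9 and 45.3 in untreated wild type cultures. On Shh arrays it read 23.7 and 33.3 in Bmi1-/- cultures, against 21.5 and 21.3 in wild type cultures. For both genes arrays of a single group lay above and under the floor, and the average log2 differences were 0.26 for Hoxa11 and -0.25 for Hoxa13. The plot of effects by gene number shows the changed genes at positions 2 to 9.

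**Figure D2:**
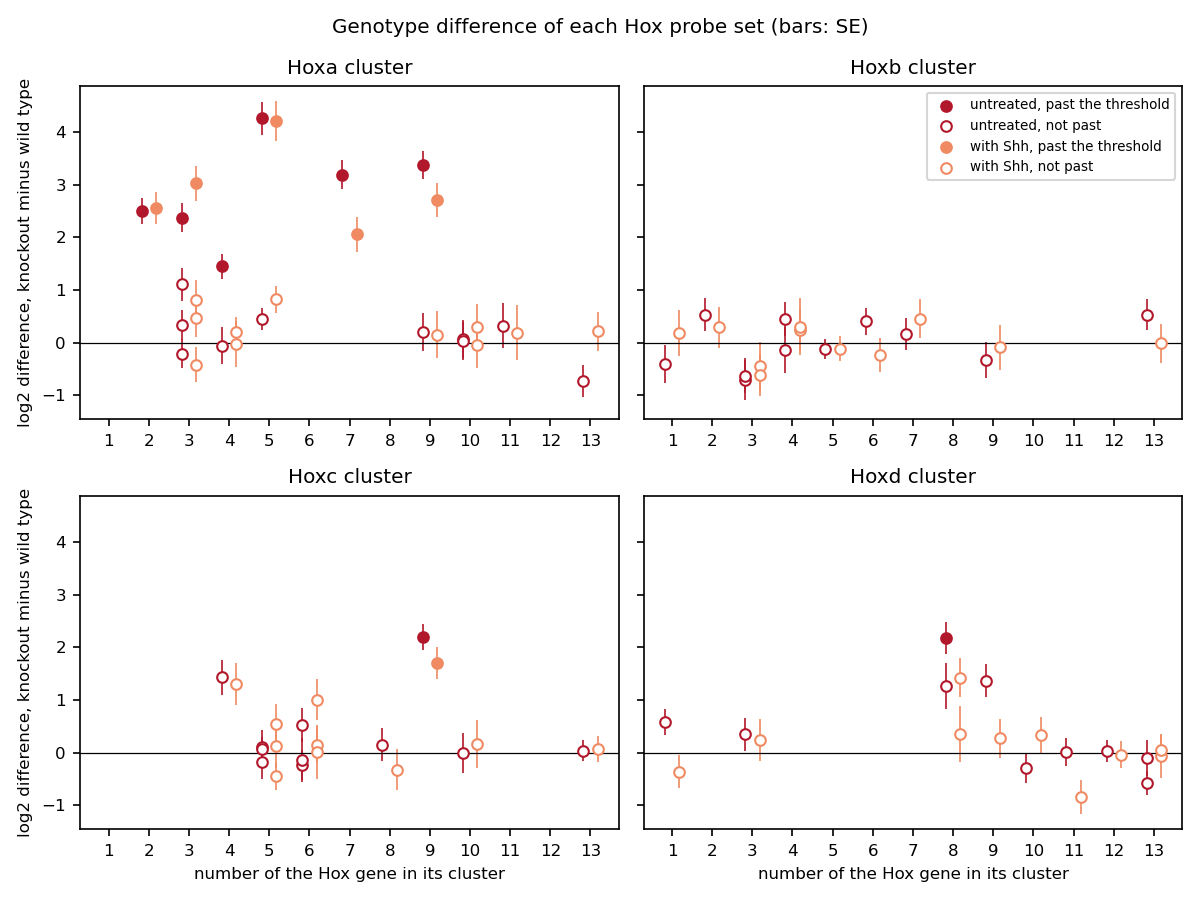
Log2 difference, Bmi1-/- minus wild type, of each Hox probe set (vertical axis, of signal plus 20.9) by the number of the gene in its cluster (horizontal axis), in 1 panel per cluster; red is without Shh, orange with Shh, bars are the SE, and filled points passed the test. The filled points of the Hoxa panel run over genes 2 to 9 and reach 4.26 at Hoxa5, the Hoxb panel has no filled point, and Hoxc9 and Hoxd8 hold the filled points of the remaining panels.

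**Figure D3:**
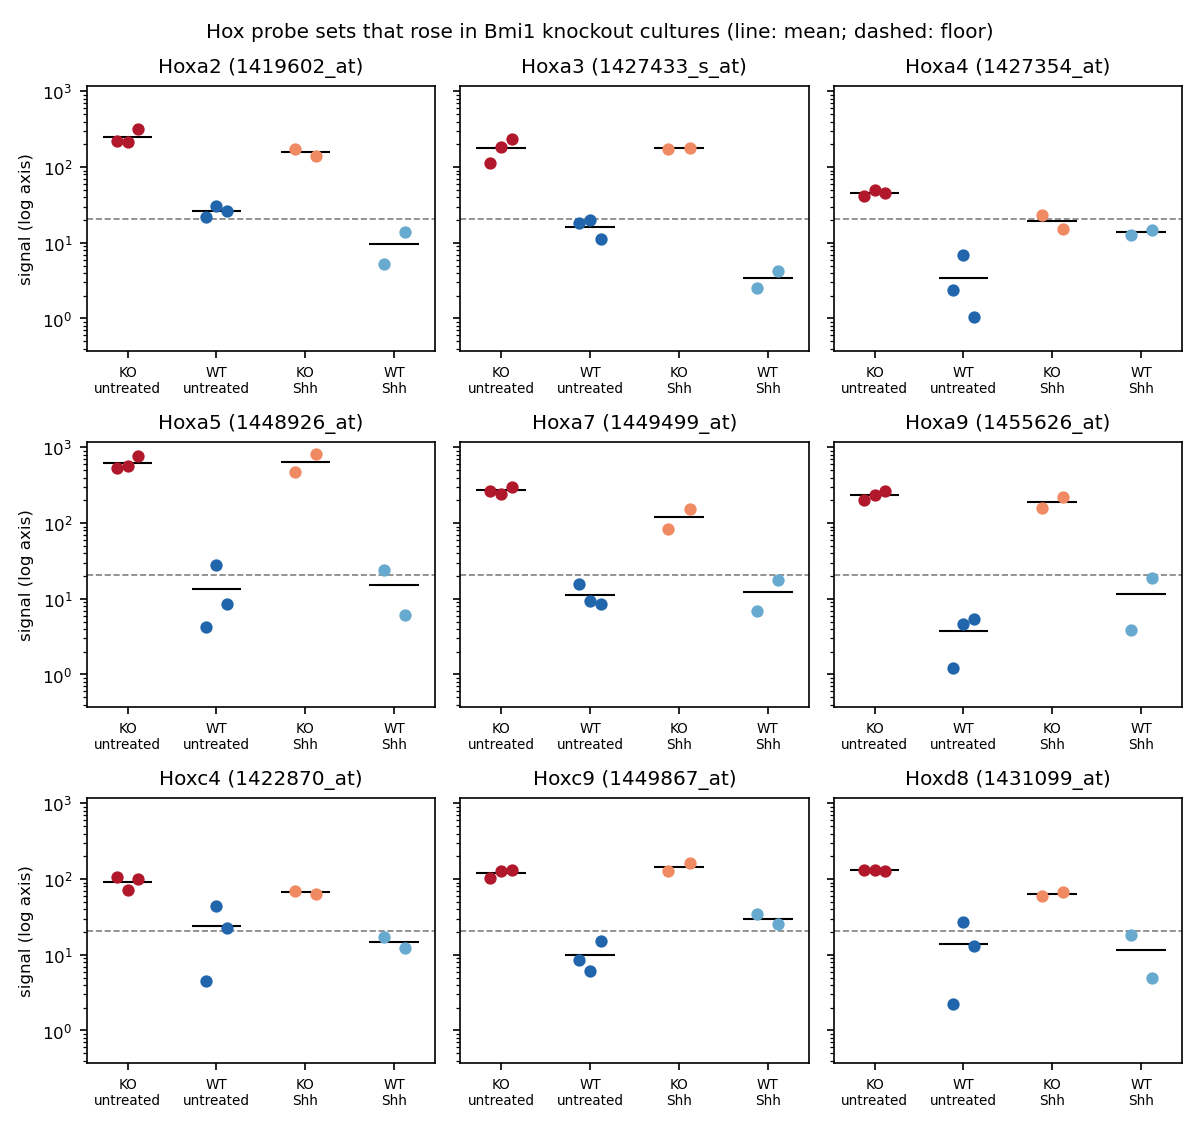
Signal on each array (points, log axis) of the 9 Hox probe sets that rose in a genotype comparison, with group means (lines) and the floor of 20.9 (dashed). In each condition the Bmi1-/- points lie above the wild type points, by the least for Hoxa4 with Shh.

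In the Hoxc cluster, Hoxc4 and Hoxc9 rose. Hoxc9, which gives motor neurons of the thoracic spinal cord their identity, gave 105, 126 and 131 in untreated Bmi1-/- cultures, against 8.57, 6.10 and 15.2 in untreated wild type cultures. With Shh the signals were 127 and 161 in Bmi1-/- cultures, against 34.1 and 25.4 in wild type cultures. The groups did not overlap, and the wild type arrays were under the floor without Shh and above it with Shh. This amounted to a fold of at least 5.74 without Shh (log2 difference 2.20, SE 0.25, adjusted p = 0.000967) and 4.88 with Shh (1.70, SE 0.30, adjusted p = 0.0348). The Shh call was lost with the culture pairs as a block (adjusted p = 0.0595), without both high-18S arrays (adjusted p = 0.0754) and when replicate 2, 4, 6, 7, 8, 9 or 10 was left out (highest adjusted p 0.326). That call was also lost with a fit of the compared groups alone.

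Hoxc4, a gene of the neck and upper trunk, gave 107, 71.9 and 99.2 in untreated Bmi1-/- cultures, against 4.55, 44.6 and 22.8 in untreated wild type cultures. With Shh it gave 70.7 and 63.0 in Bmi1-/- cultures, against 17.4 and 12.3 in wild type cultures. All Bmi1-/- arrays lay above all wild type arrays, but the untreated wild type arrays were spread widely. The fold was at least 3.30 without Shh and at least 3.19 with Shh. The average comparison passed (log2 difference 1.36, SE 0.26, adjusted p = 0.0297), while the untreated and the Shh comparison alone did not (adjusted p = 0.146 and 0.385). The average call ended when replicate 2, 5, 6, 7, 8, 9 or 10 was left out (highest adjusted p 0.155), without both high-18S arrays (adjusted p = 0.0820) and with a prior without a mean-variance trend (adjusted p = 0.0831).

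Hoxc6, which marks the level of the forelimb, was above the floor on every array with probe set 1427361_at. It gave 39.9, 36.0 and 23.8 in untreated Bmi1-/- cultures, against 35.3, 29.7 and 67.2 in untreated wild type cultures. Under Shh its signals were 51.3 and 50.2 in Bmi1-/- cultures, against 50.2 and 37.4 in wild type cultures. The untreated groups overlapped, and the average log2 difference was -0.04 (adjusted p = 0.986). Its other probe sets had -0.06 and 0.77, and neither passed the test. The other measured Hoxc genes, Hoxc5, Hoxc8, Hoxc10 and Hoxc13, had average log2 differences of -0.18 to 0.18, and none passed the test.

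In the Hoxd cluster only Hoxd8 rose. Hoxd8, a gene of the trunk, gave 134, 131 and 127 in untreated Bmi1-/- cultures with probe set 1431099_at, against 2.21, 26.8 and 13.1 in untreated wild type cultures. In Shh cultures it gave 60.1 and 68.4 in Bmi1-/- cultures, against 18.0 and 4.90 in wild type cultures. The Bmi1-/- arrays agreed closely within each condition and lay above all wild type arrays. This amounted to a fold of at least 5.74 without Shh (log2 difference 2.18, SE 0.30, adjusted p = 0.00563) and at least 3.06 with Shh (1.42, adjusted p = 0.220, not past the threshold). Without both high-18S arrays the untreated call was lost (adjusted p = 0.0801) and the average call held (log2 difference 1.68, adjusted p = 0.0112). The other Hoxd8 probe set, 1433638_s_at, gave 90.0, 81.1 and 81.8 in untreated Bmi1-/- cultures, against 3.07, 27.4 and 52.2 in untreated wild type cultures, and its log2 difference of 1.26 did not pass the test (adjusted p = 0.515).

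Hoxd9, a gene of the lower trunk next to Hoxd8, gave 40.8, 54.0 and 69.6 in untreated Bmi1-/- cultures, against 10.5, 4.87 and 9.02 in untreated wild type cultures. On Shh arrays it read 7.10 and 40.1 in Bmi1-/- cultures, against 16.1 and 10.7 in wild type cultures. The untreated groups did not overlap and the Shh groups did. The untreated log2 difference of 1.37 did not pass the test (adjusted p = 0.127). Hoxd3, a gene of the neck, gave 34.6, 8.90 and 8.54 in untreated Bmi1-/- cultures, against 2.65, 21.7 and 2.74 in untreated wild type cultures. Those groups overlapped, and its average log2 difference was 0.29. With Shh the signals were 26.3 and 29.3 in Bmi1-/- cultures, against 15.1 and 26.4 in wild type cultures. Both probe sets of Hoxd13, which patterns digits, had average log2 differences of -0.26 and -0.08. Hoxd1, Hoxd10, Hoxd11 and Hoxd12 had -0.42 to 0.11, and none passed the test.

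No gene of the Hoxb cluster passed the test in a genotype comparison. Its 11 probe sets for 9 genes had average log2 differences of -0.62 to 0.41, and at an unadjusted p under 0.05 none was called without or with Shh and 1 was lower in the average comparison. Hoxb3, a gene of the hindbrain, had the most negative values. Its probe set 1427605_at gave 9.98, 12.6 and 8.38 in untreated Bmi1-/- cultures, against 9.21, 39.8 and 51.3 in untreated wild type cultures. With Shh it gave 40.2 and 9.53 in Bmi1-/- cultures, against 21.6 and 60.1 in wild type cultures. The groups overlapped in both conditions, and the average log2 difference was -0.58 (adjusted p = 0.589). Its probe set 1456229_at gave 13.2, 15.5 and 14.0 in untreated Bmi1-/- cultures, against 17.8, 53.2 and 34.7 in untreated wild type cultures. Those groups did not overlap, and its average log2 difference of -0.62 did not pass the test (adjusted p = 0.475). Hoxb4, known for expanding blood stem cells, gave 47.3, 6.07 and 48.9 in untreated Bmi1-/- cultures with probe set 1460379_at, against 42.6, 67.8 and 9.70 in untreated wild type cultures. Under Shh its signals were 56.5 and 48.0 in Bmi1-/- cultures, against 53.5 and 25.8 in wild type cultures. The untreated groups of Hoxb4 overlapped, and the average log2 difference was 0.08 (adjusted p = 0.976).

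By cluster, 6 of 9 measured Hoxa genes rose, as did 0 of 9 Hoxb genes, 2 of 7 Hoxc genes and 1 of 8 Hoxd genes. A gene was counted here by any of its probe sets and in any genotype comparison. The shares over all probe sets given above are for single probe sets and single comparisons, so they are not the matching background. In the Hoxa cluster 73.8% of the 80 Bmi1-/- values and 42.5% of the 80 wild type values lay above the floor. In the Hoxb cluster 29.1% of the 55 Bmi1-/- values and 34.5% of the 55 wild type values did. The shares were 45.5% in Bmi1-/- and 32.7% in wild type cultures for Hoxc, and 40.0% in Bmi1-/- and 24.0% in wild type cultures for Hoxd. Over all Hox probe sets 120 of 240 Bmi1-/- values and 83 of 240 wild type values were above the floor, where over all probe sets of the array the share was 79.9% in Bmi1-/- and 79.7% in wild type cultures. These differences between clusters were not tested.

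By position along the axis, 4 of 10 measured genes with the numbers 1 to 4 rose, 3 of 9 with the numbers 5 to 8 and 2 of 14 with the numbers 9 to 13. These genes were counted in the same way, with the same limit. With each gene represented by its probe set of highest mean signal, 9 Hox genes were above the floor on all 5 Bmi1-/- arrays and 3 were above it on all 5 wild type arrays. On no Bmi1-/- array above the floor were 6 genes, and on no wild type array 12 genes. Counting a gene by any of its probe sets gave 9 and 4 for all arrays, and 6 and 9 for no array, in that order of Bmi1-/- and wild type. Hoxa5 (by its x-type probe set) and Hoxc6 were above it on all 10 arrays, and 4 genes were above it on none. In untreated cultures the lowest Bmi1-/- array lay above the highest wild type array for 12 of 48 Hox probe sets, against 5.88% of all probe sets, and the reverse held for 2, against 5.80%. With Shh these counts were 16, against 18.8%, and 4, against 17.6%. In both conditions at once Bmi1-/- lay above for 10 Hox probe sets, against 2.02% of all, and below for 0, against 1.75%.

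The median log2 difference over the 48 Hox probe sets was 0.16 without Shh, 0.20 with Shh and 0.14 in the average, where the median of all probe sets was 0.00 in each. The difference was above 0 for 32, 33 and 32 of the 48 in that order. Among the 3 untreated Bmi1-/- arrays, the 9 probe sets that rose were highest on replicate 6 in 6 cases, on replicate 2 in 2 and on replicate 4 in 1, and replicate 6 is an array with high 18S signal. Between both Bmi1-/- arrays with Shh, replicate 10 was the higher in 6 cases and replicate 8 in 3. Without replicates 1 and 6 the untreated comparison still called Hoxa2, Hoxa3, Hoxa5, Hoxa7, Hoxa9 and Hoxc9, with log2 differences of 2.12 to 3.90.

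The promoters of Hoxa5, Hoxa7, Hoxa9 and Hoxd8, genes that rose, and of Hoxb4, whose average log2 difference was 0.08, show how much these regions differ in CG content, since Polycomb complexes in mammals gather at CG-rich, unmethylated DNA. The 250 bases before the RefSeq start of each gene (build GRCm38.p6) are written from 5′ to 3′ on the strand of the gene, with each CG in capitals. They lie at chr6:52204588-52204837 (minus strand) for Hoxa5, chr6:52218574-52218823 (minus) for Hoxa7, chr6:52227371-52227620 (minus) for Hoxa9, chr2:74704365-74704614 (plus) for Hoxd8 and chr11:96318017-96318266 (plus) for Hoxb4.
Hoxa5: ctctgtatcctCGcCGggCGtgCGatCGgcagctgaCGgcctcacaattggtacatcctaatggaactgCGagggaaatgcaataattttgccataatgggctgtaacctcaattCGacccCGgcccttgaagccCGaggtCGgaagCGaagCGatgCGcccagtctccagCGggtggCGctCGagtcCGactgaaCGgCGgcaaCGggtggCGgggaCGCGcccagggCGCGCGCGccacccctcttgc
Hoxa7: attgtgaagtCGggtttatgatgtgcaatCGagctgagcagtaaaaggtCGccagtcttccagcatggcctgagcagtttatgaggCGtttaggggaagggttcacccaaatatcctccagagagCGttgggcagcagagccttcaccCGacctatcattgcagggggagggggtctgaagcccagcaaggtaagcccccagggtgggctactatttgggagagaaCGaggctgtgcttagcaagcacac
Hoxa9: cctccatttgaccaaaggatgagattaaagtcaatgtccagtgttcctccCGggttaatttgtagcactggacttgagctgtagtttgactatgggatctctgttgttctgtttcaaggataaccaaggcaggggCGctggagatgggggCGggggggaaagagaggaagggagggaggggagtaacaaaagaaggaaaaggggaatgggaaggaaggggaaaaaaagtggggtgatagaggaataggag
Hoxd8: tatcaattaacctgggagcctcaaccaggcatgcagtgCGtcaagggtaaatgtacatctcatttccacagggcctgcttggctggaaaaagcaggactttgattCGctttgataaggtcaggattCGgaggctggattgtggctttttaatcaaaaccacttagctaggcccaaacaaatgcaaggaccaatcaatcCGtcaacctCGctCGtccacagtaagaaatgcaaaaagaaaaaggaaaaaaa
Hoxb4: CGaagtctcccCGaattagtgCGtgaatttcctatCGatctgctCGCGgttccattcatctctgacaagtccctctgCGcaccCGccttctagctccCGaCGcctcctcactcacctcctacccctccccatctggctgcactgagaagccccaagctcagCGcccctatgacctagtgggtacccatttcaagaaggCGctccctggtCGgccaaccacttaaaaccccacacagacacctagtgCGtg
Hoxa5 has 28 CG in this window, a number that 7.61% of all promoters of the table reach. Hoxa7 has 7, Hoxd8 has 6 and Hoxa9 has 3, which 71.0% of promoters reach, and Hoxb4 has 14. Of the measured Hox genes, 19 have a promoter in the table, 21 promoters in all. The 7 promoters of genes that rose had a median of 7.0 CG and the 14 others a median of 13.5, against 6.0 over all 32851 promoters. The genes that rose thus hold both CG-rich and CG-poor windows.

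Motifs were searched on both strands of these windows: TGATNNAT, the joint site of Pbx and Hox proteins, TGACAG, a Meis site, and TATAAA, the TATA box. TGATNNAT was found in 1 of the 7 promoters of genes that rose (Hoxa2), in 2 of the 14 others and in 7.68% of all promoters. TGACAG was found in 2 of 7 (Hoxa2 and Hoxa3), in 0 of 14 and in 15.9% of all promoters. TATAAA was found in 0 of 7, in 2 of 14 and in 12.4% of all promoters. In Hoxa2 the TGATNNAT and the TGACAG match do not overlap, and in Hoxd13 both TATAAA matches overlap each other. These matches are a description of the letters in the windows.

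The neighbours of the clusters were looked at next, in the order of protein-coding genes in the RefSeq annotation. Skap2, an adaptor protein of Src family kinases and the first protein-coding gene beyond the anterior end of the Hoxa cluster, rose with all 3 of its probe sets in the average comparison. Its probe set 1418895_at gave 1246, 1314 and 1262 in untreated Bmi1-/- cultures, against 589, 603 and 681 in untreated wild type cultures. In Shh cultures it gave 1184 and 1531 in Bmi1-/- cultures, against 542 and 548 in wild type cultures. The groups were far apart in both conditions, and Skap2 was well above the floor in wild type cultures. The log2 difference was 1.01 without Shh (SE 0.11, adjusted p = 0.000688) and 1.27 with Shh (SE 0.13, adjusted p = 0.000533). The average log2 differences of the other probe sets were 1.43 (1460623_at, adjusted p = 9.69e-06) and 0.85 (1457097_at, adjusted p = 0.0340, and up to 0.211 with arrays left out in turn). The plot of the Hoxa neighbourhood shows these values beside those of the Hoxa genes.

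**Figure D4:**
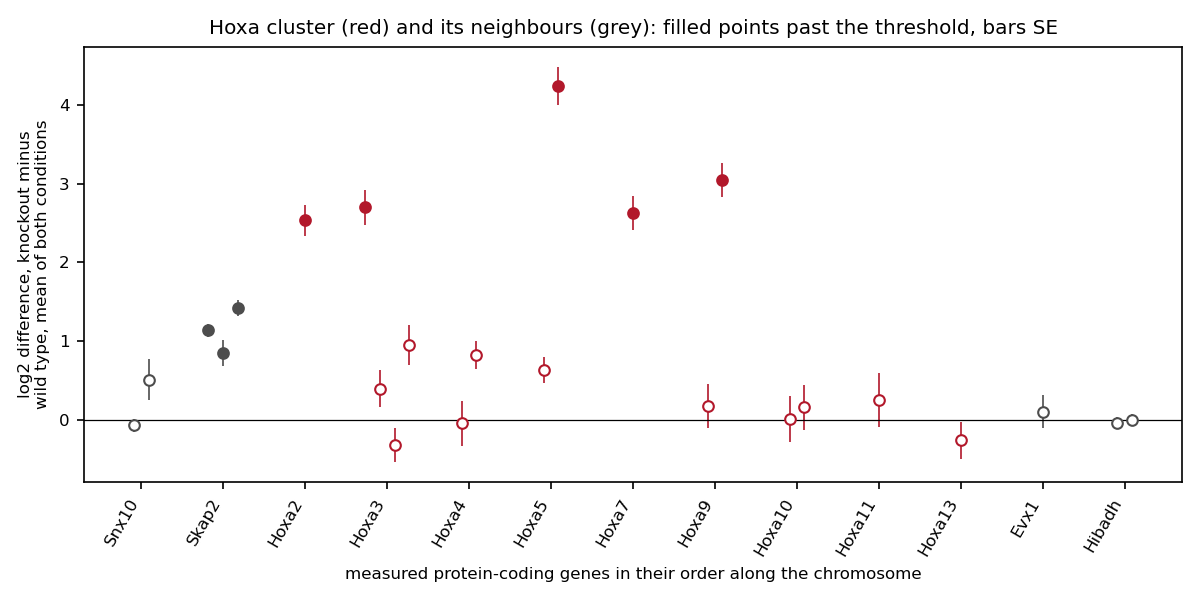
Average log2 difference, Bmi1-/- minus wild type, with SE bars, of each probe set of the Hoxa genes (red) and of the next protein-coding genes on both sides (grey), in chromosomal order without distances and only for genes with a probe set; filled points passed the test. All 3 Skap2 points are filled at 0.85 to 1.43, while Snx10 beyond it and Evx1 and Hibadh at the Hoxa13 end have no filled point.

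The other 14 measured flanking genes of the 4 clusters, among them Evx1 and Evx2 (homeobox genes at the posterior ends of Hoxa and Hoxd), Snx10, Hibadh, Cbx5 and Mtx2, had 27 probe sets. None passed the test in a genotype comparison by limma, and at an unadjusted p under 0.05 none was called without Shh, while 1 was higher with Shh and 1 in the average comparison. The noncoding transcripts Hoxa11os, Hoxb5os and Hoxd3os1 did not pass it either, with 1 lower at an unadjusted p under 0.05 without Shh. Hoxb5os, an antisense transcript of the Hoxb cluster, gave 3.50, 16.7 and 28.9 in untreated Bmi1-/- cultures, against 48.9, 70.5 and 61.2 in untreated wild type cultures (log2 difference -1.17, adjusted p = 0.318). Those 2 groups did not overlap.

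Hox proteins bind DNA together with TALE homeodomain cofactors of the Meis, Pbx and Pknox families. Of 9 such genes 8 were measured, and Meis2 rose while the other 7 did not pass the test. Meis2 gave 206, 222 and 234 in untreated Bmi1-/- cultures with probe set 1457632_s_at, against 39.6, 86.3 and 46.4 in untreated wild type cultures. On Shh arrays it read 96.4 and 65.3 in Bmi1-/- cultures, against 23.5 and 3.09 in wild type cultures. The groups did not overlap in either condition. The log2 difference was 1.67 without Shh (SE 0.30, adjusted p = 0.0405), 1.62 with Shh (adjusted p = 0.125) and 1.64 in the average (SE 0.24, adjusted p = 0.00482), and the untreated call was lost when replicates were left out in turn (highest adjusted p 0.226). Its probe set 1417129_a_at gave an average log2 difference of 1.74 (adjusted p = 0.00330), and the remaining probe sets, at 0.48 and 1.10, did not pass the test.

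Among regulators of Hox expression few genes passed the test. Of 11 measured trithorax genes, which counter Polycomb at Hox loci, none passed the test by limma in a genotype comparison. In the average comparison 3 had an unadjusted p under 0.05, as did 3325 of all 34945 probe sets. The largest average log2 differences were 0.31 for Kmt2d and 0.28 for Kmt2c. With the culture pairs as a block Kmt2c passed in the average (adjusted p = 0.0404). Of 14 measured genes of the retinoic acid pathway, which opens anterior Hox genes in the embryo, Cyp26b1, a retinoic acid degrading enzyme, rose in the average comparison. It gave 1246, 1110.0 and 1364 in untreated Bmi1-/- cultures, against 907, 1028 and 849 in untreated wild type cultures. With Shh the signals were 531 and 439 in Bmi1-/- cultures, against 316 and 221 in wild type cultures. The groups did not overlap, and the average log2 difference was 0.61 (SE 0.11, adjusted p = 0.0205), lost when replicates were left out in turn (highest adjusted p 0.141). Its Shh difference of 0.82 passed with the block alone (adjusted p = 0.0247, against 0.0849 without it). Of 13 measured genes of hindbrain segmentation, Fgf8, a signal of the border between midbrain and hindbrain, had an average log2 difference of 0.93 (adjusted p = 0.0463, 0.0639 with the culture pairs as a block, and up to 0.234 with arrays left out in turn). With the block Otx2 and Zbtb16 of this list passed in the average (log2 differences 0.32 and 0.54, blocked adjusted p = 0.0270 and 0.0487). Fgf8 was above the floor only in Bmi1-/- cultures with Shh, at 54.0 and 34.6.

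Markers of hindbrain neurons outside the cerebellum, which carry Hox expression in the animal, were set beside these results. Of 11 such markers 9 were measured, and they summed to 487 to 586 in untreated Bmi1-/- cultures, against 253 to 316 in untreated wild type cultures. With Shh they summed to 254 to 514 in Bmi1-/- cultures, against 251 to 335 in wild type cultures. Pou4f1, a homeodomain factor of sensory and brainstem neurons, alone passed the test, by 1 of its 2 probe sets (untreated log2 difference 2.39, SE 0.30, adjusted p = 0.00232). With Shh its difference was 1.91 (adjusted p = 0.0570, and 0.0327 with the block). That probe set, 1429668_at, gave 152, 272 and 253 in untreated Bmi1-/- cultures, against 24.6, 30.2 and 20.2 in untreated wild type cultures. Without Pou4f1 the sums were 262 to 335 in untreated Bmi1-/- cultures, against 229 to 296 in untreated wild type cultures, and with Shh 153 to 306 in Bmi1-/- cultures, against 222 to 316 in wild type cultures. Tph2, the serotonin-synthesis enzyme of raphe neurons, was under the floor on all arrays. Spread over 8 genes, the sums without Pou4f1 lie near the floor per gene. Sums this dim cannot show how many such neurons the cultures held.

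Of 15 fibroblast and meningeal markers, whose cells also express Hox genes in the trunk, Twist1 rose without Shh (log2 difference 2.37, SE 0.26, adjusted p = 0.000839) and the other 14 did not pass the test. Twist1 gave 87.6, 123 and 127 in untreated Bmi1-/- cultures, against 5.91, 4.56 and 3.72 in untreated wild type cultures. With Shh it gave 44.7 and 45.7 in Bmi1-/- cultures, against 1.12 and 12.6 in wild type cultures. Without Twist1 the other 14 summed to 5897 to 6512 in untreated Bmi1-/- cultures, against 5378 to 7050 in untreated wild type cultures. With Shh they summed to 4858 to 4971 in Bmi1-/- cultures, against 5689 to 5721 in wild type cultures. Most of these Shh sums was Pdgfra, also a marker of the oligodendrocyte lineage. Its mean with Shh was 3618 in Bmi1-/- and 4342 in wild type cultures, so the sums mainly follow this gene. The part of other cells in the Hox values was not tested.

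Few Hox probe sets passed the test of the Shh effect, and many of their values were under the floor. Above it were 120 of 240 Bmi1-/- and 83 of 240 wild type Hox values, a smaller share than over all probe sets. The shares of calls below are therefore not compared on equal terms. In Bmi1-/- cultures 2 of 48 Hox probe sets passed the Shh comparison, against 13.6% of all probe sets, 5.03% as higher and 8.58% as lower. Hoxa7 fell with Shh in Bmi1-/- cultures, with the values given above (log2 difference -1.10, SE 0.30, adjusted p = 0.0287). That call ended when replicate 2, 4, 6 or 8 was left out (highest adjusted p 0.292), without both high-18S arrays (adjusted p = 0.0881) and under quantile normalization (adjusted p = 0.0681). Of the 9 Hox probe sets that rose in a genotype comparison, 5 were higher on all untreated than on all Shh Bmi1-/- arrays. They were those of Hoxa2, Hoxa4, Hoxa7, Hoxc4 and Hoxd8, and only Hoxa7 passed. For Hoxa3, Hoxa5, Hoxa9 and Hoxc9 these groups overlapped. Hoxd13 rose with Shh in Bmi1-/- cultures by probe set 1440626_at, which gave 27.9 and 23.7 with Shh, against 5.01, 3.27 and 7.67 without Shh (log2 difference 0.83, SE 0.25, adjusted p = 0.0445). In wild type cultures the same probe set gave 22.6 and 25.3 with Shh, against 23.6, 16.6 and 14.8 without Shh. The values with Shh barely exceeded the floor, and the call ended when replicate 2, 3, 4, 5, 6, 8, 9 or 10 was left out (highest adjusted p 0.211).

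In wild type cultures 1 of 48 Hox probe sets passed the Shh comparison, against 16.9% of all probe sets, 6.49% as higher and 10.4% as lower. It was Hoxd11, which patterns the forearm and the kidney, with 15.8 and 46.1 with Shh, against 4.85, 3.50 and 1.44 without Shh (log2 difference 1.04, SE 0.29, adjusted p = 0.0253). Replicate 9 alone was above the floor, and the call ended when replicate 3, 5 or 9 was left out (highest adjusted p 0.277). The median Shh effect over Hox probe sets was 0.01 in Bmi1-/- and 0.04 in wild type cultures, against -0.03 in Bmi1-/- and -0.04 in wild type cultures over all probe sets. The test of the difference between the genotype effects with and without Shh called 0 of 48 Hox probe sets and 0% of all by limma. At an unadjusted p under 0.05 it called 4 Hox probe sets (Hoxa4, Hoxa7, Hoxd1 and Hoxd9), all with a negative difference, and 1541 probe sets in all.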

How the data were processed

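Total RNA of 10 cultures was hybridised to 1 array each. The deposited values are linear MAS5 intensities, made with GCOS 1.2 and MAS5 per the submitters' processing notes, without detection calls; in the deposited table the mean after trimming 2% is 500.0 on every array. Arrays have no read depth, and precision is set by how many there are. Of 45101 probe sets, 64 controls, 932 with several symbols and 9160 with none were left out, and 34741 of the remaining 34945 matched RefSeq genes (GRCm38.p6) by Entrez number, with 0 symbols changed.

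The fit, two-sided, used R 4.3.3 and its package limma 3.58.1 (eBayes with a trend) on log2 of signal plus 20.9, with 1 mean per group over all arrays, no filter, and Benjamini-Hochberg adjustment over 34945 probe sets. This fit gives every adjusted p in the text for which no other setting is named, and it was tested on simulated data. The threshold is the same for all settings. Tables were made with Python 3.11.15, numpy 2.4.6 and pandas 2.3.3, and plots with matplotlib 3.10.9. Alternatives were another pseudocount of 50, a floor in its place, filters, quantile normalization, no trend, the compared groups alone, a block on culture pairs, and arrays left out; leaving out both high-18S arrays was chosen after seeing the data.

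The members and gene lists were chosen with earlier results of these data known. Named with values per array are Hox genes that passed in a genotype comparison or lay above the floor on all arrays of a group; of the other lists, members that passed, otherwise the 2 with the largest average difference. Hoxd11, 1456229_at of Hoxb3, and Hoxb5os beyond its list's count were singled out after their values were seen. Consecutive replicate numbers (1 with 2, up to 9 with 10) were taken to pair cultures from the data alone, and the labels name no pairs. Without Shh their deviations from the group means correlated at 0.252, 0.191 and 0.200 over 17472 probe sets. With Shh they correlated at 0.242 and the other pairing at -0.242. In groups of 2 arrays these values mirror each other by construction, so only the sign was free. The block was thus chosen from these data, and calls made only with it carry this limit. Where nothing else is known of the cultures, p-values measure the spread between these samples.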

Additional observations from a re-analysis of the deposited data

How the results depend on the processing

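Over the 25 Hox results that passed the test, 420 alternative values gave 0 reversals, but these are refits of the same arrays. Calls were lost in some of them. Without arrays 1 and 6, 18 calls were kept and 7 lost, and with the compared groups alone 10 were kept and 7 lost. The Hox counts (8 without Shh, 6 with Shh, 8 in the average; Shh effect 2 in Bmi1-/- and 1 in wild type; 0 for the difference between genotype effects) depend most on filters: a filter on dim probe sets leaves 2 Hox probe sets, both of Hoxa5, and called 1, 1, 1, 0 and 0 in that order, and with a floor, the filter, 1 probe set per gene and no trend the counts were 0, 0, 0, 0 and 0. With the compared groups alone 2 passed with Shh, and the Shh effect counts were 1 and 0. In Bmi1-/- cultures the Shh effect count was 1 under quantile normalization, 0 without arrays 1 and 6 and 4 with a pseudocount of 50. In wild type cultures it was 2 without the trend, 0 without arrays 1 and 6 and 0 with a floor. The difference between genotype effects had 1 call with a floor, Hoxa4. With arrays left out in turn the counts were 7 to 8, 4 to 6, 7 to 8, 0 to 2, 0 to 1 and 0 to 0.

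Over all probe sets, the untreated count of 95 was 43 with the floor, filter, 1 probe set per gene and no trend, 42 without the trend, 182 with the replicate block, 56 without arrays 1 and 6, 52 with a floor, 54 with the compared groups alone and 52 to 90 with arrays left out. The Shh count of 96 was 40 without the trend, 168 with the block, 40 with the compared groups alone and 33 to 102. The average count of 259 was 109 without the trend, 469 with the block, 153 without arrays 1 and 6, 160 with a floor and 98 to 269. Shh effects ranged over 2443 to 4807 in Bmi1-/- and 3140 to 5980 in wild type cultures, where the floor, filter and no trend gave 3854. The difference between genotype effects had 1 call with that setting, 1 with the block, 1 without arrays 1 and 6 and 25 with a floor. With the median of all values in place of the floor, 6 genes lay above it on all Bmi1-/- arrays and 1 on all wild type arrays. The block moved 1 Hox call, Hoxc9 with Shh. The causes were not tested. Dim probe sets near the floor limit what can be measured.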

Other observations

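Markers of other cells of the cerebellum were read over the same arrays. Of 7 oligodendrocyte markers, the lineage factors Olig1, Olig2 and Sox10 rose in Bmi1-/- cultures with Shh (log2 differences 0.93, 1.30 and 1.19), where without Shh the same probe sets gave -0.10, 0.34 and 0.06 and none passed the test. In the average comparison Olig2 (0.82), Sox10 (0.63) and the precursor proteoglycan Cspg4 (0.66) rose, while Mog (-0.77) and Pdgfra (-0.19) had negative differences. At an unadjusted p under 0.05, 4 of the 7 were higher and 2 lower in the average, where 3325 of all 34945 probe sets were under it. For this and the following lists, 0.272% of all probe sets passed the test without Shh, 0.275% with Shh and 0.741% in the average. The other probe sets of Sox10 had average differences of 0.80 and -0.0012, that of Cspg4 had 0.13, and none of these passed the test. The culture block added Olig1 in the average (0.41, blocked adjusted p = 0.00255).

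Of 11 inhibitory neuron markers, the neuropeptide Sst rose without Shh (1.68), with Shh (1.97) and in the average (1.82). Gad2, which makes GABA, and Slc6a5, a glycine transporter, rose in the average by 1 probe set each (1.04 and 1.05), and their other probe sets had 0.12 and 0.03 and did not pass. Lhx1 (-0.21) and Lhx5 (-0.30) had negative average differences, and the block called Lhx1 lower without Shh (-0.38, blocked adjusted p = 0.0374). Of 9 astrocyte and Bergmann glia markers, Gdf10, a growth factor of Bergmann glia, and the secreted protein Sparcl1 rose with Shh (1.04 and 0.67) and in the average (0.55 and 0.36), and gave 0.06 and 0.05 without Shh, which did not pass.

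Of 9 microglia markers, the complement genes C1qa (-0.80), C1qb (-0.81) and C1qc (-0.79) fell in the average. With Shh C1qa gave -1.17 and passed, and without Shh it gave -0.43 and did not. Of the other C1qb probe sets, 1437726_x_at fell in the average too (-0.73) and 1434366_x_at, at -0.39, did not pass. With the block Cx3cr1 (-0.77) and Csf1r (-0.44) passed in the average too (blocked adjusted p = 0.0104 and 0.00516). The block also called C1qb and C1qc lower with Shh (-1.17 and -1.07, blocked adjusted p = 0.0317 and 0.0114), and Cx3cr1 and Csf1r lower without Shh (-0.84 and -0.54, blocked adjusted p = 0.0418 and 0.0114). The difference between the genotype effects with and without Shh passed the test by limma for none of these genes. At an unadjusted p under 0.05 that difference was positive for 4 of 7 oligodendrocyte and 4 of 9 astrocyte markers and negative for 2 of 9 microglia markers. Over all 34945 probe sets, 1541 were under it in either direction.

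When arrays were left out in turn, Sst and C1qa kept an adjusted p of at most 0.0151 and 0.0181 in the average comparison by limma, and each of the other genes called in the average without the block went past the threshold, to between 0.0804 and 0.209. Of 7 endothelial markers 0 passed the test by limma in a genotype comparison. At an unadjusted p under 0.05, 0 were called without Shh and 0 in the average, while 1 was lower in Bmi1-/- cultures with Shh.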
